A study of Homo sapiens with 8 samples.

Results

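The retinoid carriers and receptors examined here are 7 genes: the carriers CRABP1 and CRABP2, the retinoic acid receptors RARA and RARG, the retinoid X receptors RXRA and RXRB, and DHRS3, an enzyme that reduces retinal. They were chosen by the CRABP2 level, which differed strongly between the control groups of the study, so values of that contrast describe the choice and were not tested. Of the 7 genes, 6 had rows in the count files, and all 6 passed the filter on low counts, out of 17179 gene symbols in all. DHRS3 had no row and was not analysed here.

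The values are ribosome footprints of 293T cells, derived from human embryonic kidney and expressing a viral T antigen, in 8 libraries that form 4 groups of 2. One arm set a non-cleaving short hairpin RNA, shNBD1, against a control for shRNA titled Scr. The other arm set miRNA inhibitors against a control for inhibitors titled NC control. The labels do not say how the small RNAs were delivered, which miRNAs were inhibited or whether replicates were separate cultures. The p-values therefore rest on the spread among these libraries, and that spread may be technical. A row for an NBD1 reporter was present in all 8 libraries, controls included. Footprint counts report ribosomes on a message. No RNA libraries were used here, so mRNA level and translation cannot be told apart, nor can fewer cells from less RNA per cell.

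Total counts ran from 11218980 to 19854218 per library. Of the genes taken as usual for this line, the intermediate filament gene INA stood between 43.4 and 70.1 CPM (read counts scaled by the TMM-adjusted library total), PAX2, a kidney factor, between 1.89 and 3.44 CPM and NEFM, a neurofilament gene, between 0.924 and 1.66 CPM. LIN28B, an RNA-binding protein, held 6.71 and 7.94 CPM under the shRNA control against 15.8 and 15.1 under shNBD1, and 12 and 13.7 under the inhibitor control against 18.8 and 19.9 under the inhibitors. Levels of markers of other cell types also differed between arms and treatments, with no test run on the lists. The summed level of 4 macrophage and leukocyte markers lay between 38.2 and 38.6 CPM under the shRNA control, 26.5 and 27.0 under shNBD1, 12.3 and 15.7 under the inhibitor control, and 11.4 and 13.8 under the inhibitors. It was carried by CD68, while the leukocyte marker PTPRC was at 0 in 6 libraries and at most 0.102 CPM. CD14, of the same list, went the other way between the arms at a low level. It was at most 0.068 CPM in the shRNA arm and 0.51 to 1.23 CPM in the inhibitor arm. CD163 was at most 0.199 CPM, in the shRNA control. The sum of 4 smooth muscle markers ran from 311 to 340 CPM in the shRNA control, 385 to 387 with shNBD1, 534 to 561 in the inhibitor control and 437 to 466 with the inhibitors. ACTA2 made up most of that sum, at 532 and 502 CPM in the inhibitor control and 403 and 424 CPM with the inhibitors. MYH11 went the other way in that arm, from 17 and 20.7 CPM to 23.1 and 30.1 CPM. CNN1, also of this list, held 0.664 and 0.9 CPM in the shRNA control and 5.48 and 5.17 with shNBD1. The sum of 5 fibroblast markers, mostly COL1A1, ran from 40 to 41 CPM and 55.1 to 60.4 CPM in the shRNA arm, and from 27.7 to 46.9 and 45.1 to 64.1 CPM in the inhibitor arm, control first. DCN, a defining fibroblast gene, was at most 0.164 CPM. The part of these differences in the results was not tested.

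Retinol is taken into cells, oxidised to retinal and then to retinoic acid. Retinoic acid is held in the cytosol by the small binding proteins CRABP1 and CRABP2, of the fatty acid binding protein family. CRABP2 is known to hand it to the receptors in the nucleus, and CRABP1 has been linked to its breakdown. The receptors act as pairs of a RAR and an RXR that bind direct repeats of a short half-site in DNA and exchange corepressors for coactivators when the ligand binds.

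The results turn on the pair of carriers, so the 250 bases before each start site are shown first, from RefSeq on GRCh38.p14, 5′ to 3′ on the strand of the gene. All 7 genes matched the promoter table. CRABP1 (ENSG00000166426) lies on chromosome 15 from 78340353 to 78348225 on the plus strand, and its stretch is chr15:78340103-78340352. CRABP2 (ENSG00000143320) lies on chromosome 1 from 156699606 to 156705784 on the minus strand, and its stretch is chr1:156705785-156706034. Both stretches are upstream of the annotated gene. Capitals mark matches, on either strand, to the retinoic acid receptor half-site spelled AGGTCA or, as further spellings searched, AGTTCA as well as GGGTCA as well as GGTTCA, or else to the GC box, spelled GGGCGG.
CRABP1: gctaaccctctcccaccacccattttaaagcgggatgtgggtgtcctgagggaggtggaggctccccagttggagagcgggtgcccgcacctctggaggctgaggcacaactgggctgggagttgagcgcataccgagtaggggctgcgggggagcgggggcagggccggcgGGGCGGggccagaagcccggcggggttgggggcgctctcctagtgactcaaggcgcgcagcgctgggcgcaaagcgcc
CRABP2: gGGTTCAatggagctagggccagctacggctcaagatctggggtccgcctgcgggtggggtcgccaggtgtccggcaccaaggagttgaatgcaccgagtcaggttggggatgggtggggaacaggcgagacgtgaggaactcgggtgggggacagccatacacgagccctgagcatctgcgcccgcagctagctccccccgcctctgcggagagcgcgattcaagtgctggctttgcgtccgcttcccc
The CRABP2 stretch held 1 half-site, GGTTCA, beginning 249 bases before the start, and no GC box. The CRABP1 stretch held 1 GC box, beginning 78 bases before the start, and no half-site. Among all 35116 promoters of the table, 33.8% held a half-site and 42.6% a GC box in the same 250 bases. Half-sites in direct repeat with a spacer of 1, 2 or 5 bases, the arrangements used by the receptor pairs, were in neither stretch, and in 0.0968%, 0.0313% and 0.074% of all promoters. A match is a description of letters only.

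CRABP2 was the lead of the choice. Its level was 3.78 and 4.01 CPM under the shRNA control, 8.53 and 7.96 under shNBD1, 24.9 and 25.5 under the inhibitor control, and 28.5 and 28.1 under the inhibitors. The groups thus ordered from the inhibitors down to the shRNA control, with no overlap between any neighbours in that order. Raw counts behind these levels ran from 49 to 120 in the shRNA arm and from 297 to 500 in the inhibitor arm. The inhibitor control stood 6.48-fold above the shRNA control, a log2 difference of -2.70 for shRNA control minus inhibitor control, and 128 of the 13306 genes tested, CRABP2 included, differed by at least as much in either direction.

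CRABP1 followed another order. Its libraries held 6.24 and 6.30 CPM under the shRNA control, 1.49 and 1.77 under shNBD1, 7.72 and 9.03 under the inhibitor control, and 7.06 and 7.09 under the inhibitors. The shNBD1 libraries were the low ones, at 21 and 26 raw counts, and the other 6 libraries held between 75 and 177. The inhibitor control lay above the shRNA control by 1.34-fold for CRABP1. The control libraries did not overlap for 4 of the 6 genes, CRABP1, CRABP2, RARA and RXRA, each lower in the shRNA control, where 67.1% of all genes did not overlap, 33.7% higher and 33.4% lower. That contrast was used in the choice, so nothing is read from this count.

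**Figure D1:**
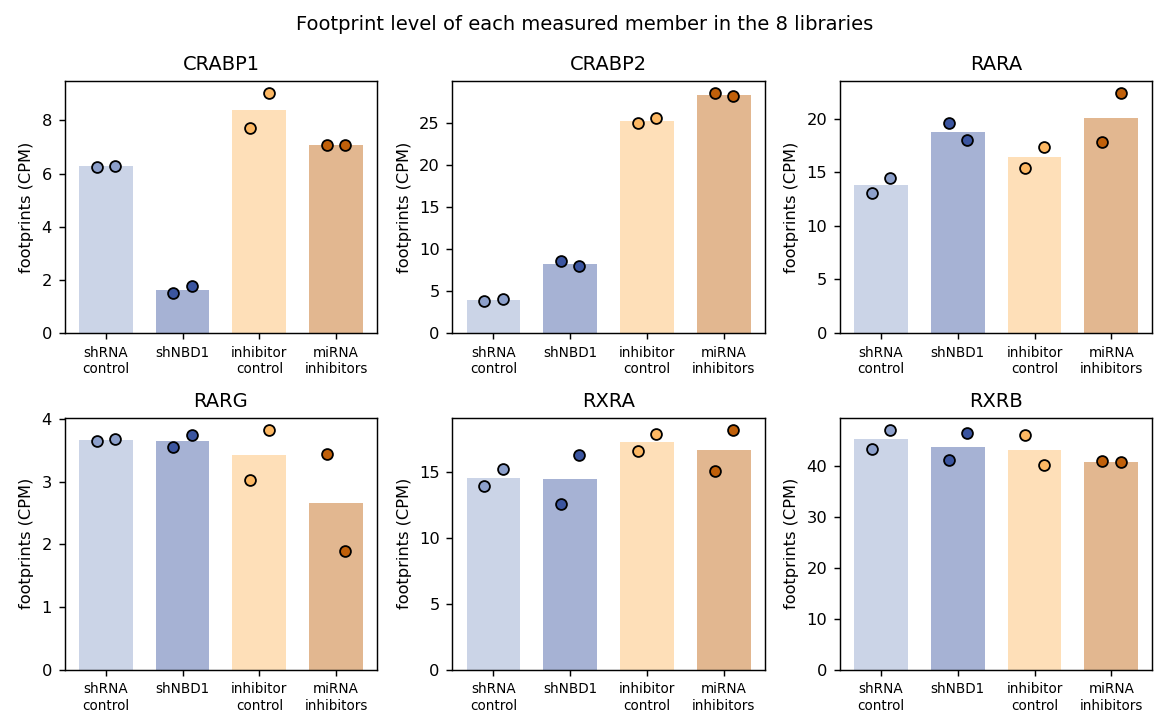
Footprint level in CPM (vertical axis, from 0, a separate scale for each gene) of the 6 measured genes in the 4 groups. Points are the 2 libraries of a group and bars their mean. CRABP1 is lowest with shNBD1 and CRABP2 steps up from the shRNA control to shNBD1 and again to both inhibitor groups, while RXRB stays between 40.3 and 47.2 CPM in every library.

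Over the 8 libraries the receptors varied less in proportion than the carriers, of which CRABP2 was chosen for its gap. Within the inhibitor arm this did not hold for RARA and RARG, where CRABP1 ran from 7.06 to 9.03 CPM and CRABP2 from 24.9 to 28.5 CPM. RXRA, at 15.1 to 18.2 CPM in that arm, varied more in proportion than CRABP2 but less than CRABP1. RXRB, at 40.3 to 46.1 CPM, varied about as much as CRABP2. RARA (ENSG00000131759, chromosome 17, 40309180 to 40357643), the retinoic acid receptor alpha, stood at 13.1 and 14.5 CPM under the shRNA control, 19.6 and 18.0 under shNBD1, 15.4 and 17.4 under the inhibitor control, and 17.8 and 22.4 under the inhibitors. Both treated groups lay above their own control, and the treated groups overlapped each other. RARG (ENSG00000172819, chromosome 12, 53210569 to 53232209), the gamma receptor, stood at 3.65 and 3.68, 3.56 and 3.74, 3.02 and 3.83, and 3.44 and 1.89 CPM in the same order of groups. These are small counts, from 20 to 75 per library, and all neighbouring groups overlapped.

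RXRA (ENSG00000186350, chromosome 9, 134326455 to 134440585), a shared partner of many nuclear receptors, stood at 13.9 and 15.2 CPM under the shRNA control, 12.6 and 16.3 under shNBD1, 16.6 and 17.9 under the inhibitor control, and 15.1 and 18.2 under the inhibitors. RXRB, its paralog in the major histocompatibility region (chromosome 6, 33193588 to 33200853), stood at 43.5 and 47.2, 41.2 and 46.6, 46.1 and 40.3, and 41.0 and 40.9 CPM in that order. For both genes, neighbouring groups overlapped throughout. The files list RXRB under 6 gene identifiers, of which ENSG00000204231 is the first. Each held on average between 15.8% and 17.4% of the RXRB counts, nearly equal shares, so the sum was used. The other identifiers carry the same symbol. Summed over the 4 receptors the level ran from 74.2 to 84.6 CPM in the 8 libraries, and the lowest and the highest sum both lay in the shRNA arm. Transcript lengths were not used, so levels are compared within a gene and not between genes.

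With shNBD1, CRABP1 fell and CRABP2 and RARA rose against the shRNA control. CRABP1 went from 6.27 ± 0.0428 to 1.63 ± 0.195 CPM (mean ± SD, n = 2 each), which is 3.82-fold lower (log2 fold change -1.94 ± 0.20, SE; edgeR's quasi-likelihood test, adjusted p = 0.000237). CRABP2 went from 3.90 ± 0.16 to 8.25 ± 0.404 CPM, or 2.12-fold higher (log2 fold change 1.08 ± 0.14; edgeR, adjusted p = 0.000803). Both calls held under all 11 alternative settings. The shRNA control libraries are also those in which CRABP2 was seen to be low when it was chosen, so its rise against them is not free of that choice.

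RARA went from 13.8 ± 0.947 to 18.8 ± 1.13 CPM with shNBD1, or 1.37-fold higher (log2 fold change 0.45 ± 0.14; edgeR, adjusted p = 0.0446). The RARA call was lost with DESeq2 (adjusted p = 0.0825) and in edgeR without any one of the 4 libraries, where the adjusted p was 0.271 and 0.126 when the first or the second shRNA control library was left out, and 0.203 and 0.138 when the first or the second shNBD1 library was. RARG, RXRA and RXRB did not pass, with log2 fold changes of -0.01, -0.01 and -0.04. Their nominal 95% intervals on the log2 scale reached from -0.57 to 0.56, from -0.34 to 0.32 and from -0.26 to 0.17, so a change as large as that of either carrier lay outside them. In all, 3 of 6 genes were called, 2 higher and 1 lower, where 18.3% of all 13306 genes tested were called, 9.18% higher and 9.15% lower. The 3 include CRABP2, whose low level in the shRNA control entered the choice of the genes, so nothing is read from this count. The same 3 genes were those whose libraries did not overlap between the groups, as held for 69% of all genes, 34.7% higher and 34.3% lower. Over all 6 genes the median log2 fold change was -0.01, beside 0.00 over all genes.

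**Figure D2:**
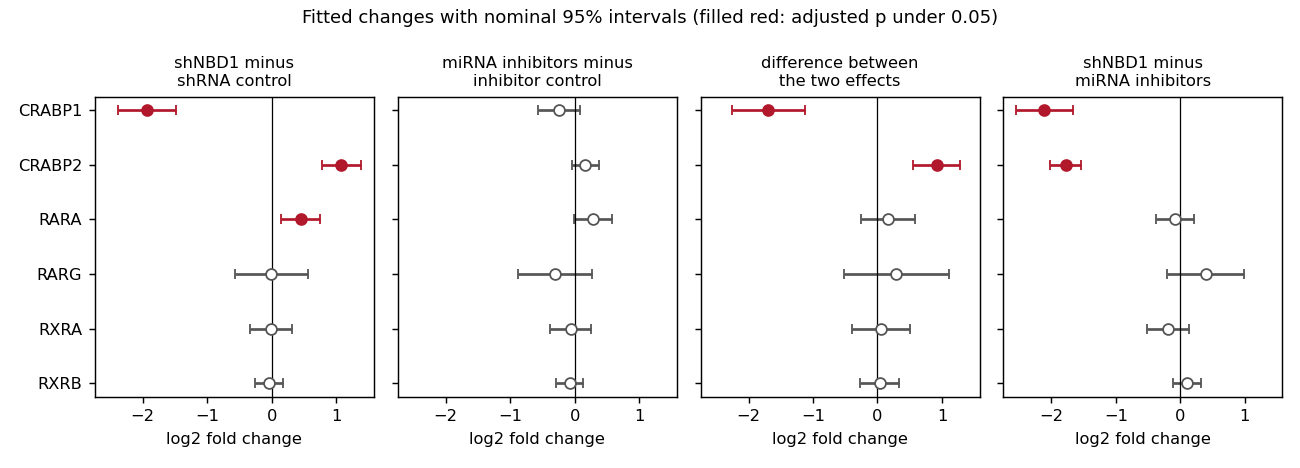
Fitted log2 fold change (horizontal axis) of the 6 genes in 4 comparisons, with nominal 95% intervals from the model. Filled red points have an adjusted p under 0.05. CRABP1 and CRABP2 lie on opposite sides of 0 in shNBD1 minus shRNA control (-1.94 and 1.08) and on the same side in shNBD1 minus the miRNA inhibitors (-2.11 and -1.78). The CRABP2 point for the difference of effects holds the control gap that chose the genes, so its fill is not read as a call. Its points against the shRNA control and against the inhibitors are not free of that choice.

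The summed level of both carriers differed little within the shRNA arm. It was 10.0 and 10.3 CPM in the shRNA control and 10.0 and 9.73 CPM with shNBD1, against 32.6 to 35.6 CPM in the 4 libraries of the inhibitor arm. The makeup of the sum differed within the shRNA arm. CRABP2 held 37.7% of the CRABP1 and CRABP2 counts in shRNA control replicate 1 (57 of 151, exact Clopper-Pearson 95% interval 30.0% to 46.0%) and 38.9% in replicate 2 (49 of 126, 30.3% to 48.0%). With shNBD1 it held 85.1% (120 of 141, 78.1% to 90.5%) and 81.8% (117 of 143, 74.5% to 87.8%). In the inhibitor arm the share was 76.4% and 73.9% in the control and 80.1% and 79.8% with the inhibitors. The shRNA control was the low group. Its low CRABP2 level is also what the genes were chosen by, so this share is not free of that choice and is a description. Within the shRNA arm the share also holds the fall of CRABP1, from 94 and 77 counts in the control to 21 and 26 with shNBD1. The share does not depend on library scaling, and its intervals cover counting error only.

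**Figure D3:**
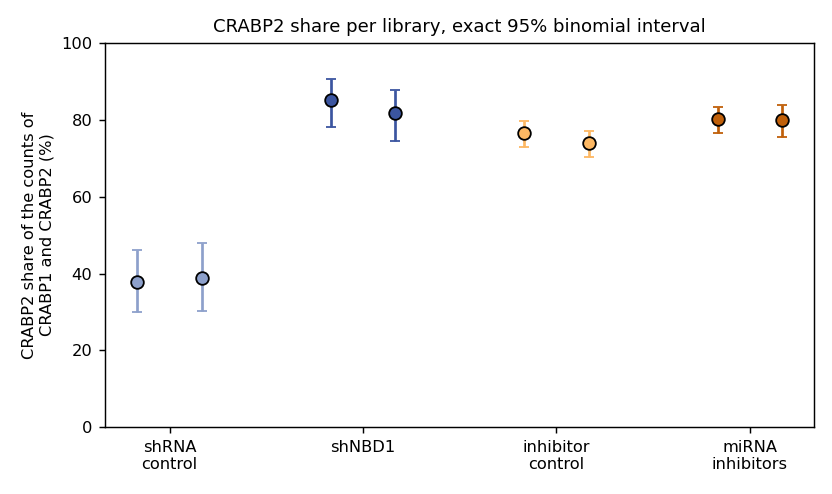
Share of CRABP2 among the raw counts of CRABP1 and CRABP2 (vertical axis, percent) in each of the 8 libraries, with exact 95% binomial intervals. Both shRNA control libraries lie at 37.7% and 38.9%, and the other 6 libraries lie between 73.9% and 85.1%.

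With the miRNA inhibitors none of the 6 genes was called in edgeR, beside 0.12% of all genes (0.0376% higher and 0.0827% lower), and 0 had an unadjusted p under 0.05. DESeq2 also called 0, with no adjusted p for 5 of them. CRABP1 went from 8.38 ± 0.931 to 7.08 ± 0.0201 CPM, or -0.24 ± 0.15 on the log2 scale, and CRABP2 from 25.2 ± 0.408 to 28.3 ± 0.297 CPM, or 0.17 ± 0.09. RARA stood at 0.28 ± 0.13, RARG at -0.30 ± 0.26, RXRA at -0.06 ± 0.14 and RXRB at -0.08 ± 0.10 (adjusted p from 0.31 to 0.861). The nominal 95% intervals of the carriers were -0.57 to 0.08 for CRABP1 and -0.04 to 0.37 for CRABP2. For CRABP1, CRABP2 and RARA the libraries of the groups did not overlap, with CRABP1 lower and the others higher, as held for 40.8% of all genes, 20.5% higher and 20.3% lower.

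The difference between the treatment effects was tested as shNBD1 minus its control, less inhibitors minus theirs. It passed for CRABP1, at -1.69 ± 0.25 (adjusted p = 0.00422, edgeR), beside 7.44% of all genes, 3.48% with a positive and 3.96% with a negative difference. CRABP1 held its call under all 14 alternatives. For CRABP2 the value was 0.92, given as a description with no test: it equals shNBD1 minus inhibitors (-1.78) less the gap between the controls (-2.70), and that gap chose the genes. All genes share those control libraries in this comparison, CRABP1 included, whose own gap between the controls was -0.42. The 4 receptors did not pass, with differences from 0.03 for RXRB to 0.29 for RARG on the log2 scale. Among the 62 tested genes of the retinoid lists described further on, 4 passed, or 6.45%, namely STRA6 (0.90 ± 0.18), TGM2 (1.13 ± 0.26), KAT2B (-0.89 ± 0.24) and BHLHE40 (-0.67 ± 0.16). In the lists with no call the smallest p-values were those of the thyroid hormone receptors THRA, at 0.37, and THRB, at 0.59, and of FABP3, at 1.86, and FABP5, at -0.06 (edgeR, adjusted p from 0.247 to 0.85).

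The arms were also compared in the treated libraries, which the choice of the genes had not used. That choice rested on a CRABP2 gap between the controls of the same arms, so the CRABP2 value here is not free of it. CRABP2 was 3.43-fold lower with shNBD1 than with the inhibitors, a log2 difference of -1.78 ± 0.11 (adjusted p = 4.79e-06, edgeR). CRABP1 was 4.31-fold lower, at -2.11 ± 0.20 (adjusted p = 4.6e-05, edgeR). Both calls held under all 11 alternatives, and 32.3% of all genes passed in this comparison, 15.9% higher and 16.5% lower. The groups did not overlap for CRABP1 and CRABP2, both lower with shNBD1, or for RARG and RXRB, both higher. That was so for 67.5% of all genes, 33.3% higher and 34.2% lower. The receptors did not pass, at -0.08 for RARA, 0.39 for RARG, -0.19 for RXRA and 0.10 for RXRB. RARG passed without inhibitor replicate 1, at 0.96 (adjusted p = 0.0435), where 1 inhibitor library with 20 RARG counts remained. Treatment and arm cannot be told apart in this comparison.

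Other genes of the retinoid pathway were taken from 5 lists that name 99 genes, of which 84 had a row and 62 were tested. With shNBD1, 7 of the 62 rose and 1 fell, or 12.9% beside 18.3% of all genes, with a median log2 fold change of 0.04. None of the 62 passed with the inhibitors in edgeR, beside 0.12% of all genes, while 7 had an unadjusted p under 0.05. DESeq2 also called 0, with no adjusted p for 30 of the 62. The edgeR median with the inhibitors was -0.04.

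Of 18 tested genes of retinoid uptake and metabolism, 2 rose with shNBD1 and none fell, with a median of -0.07, where 9.18% of all genes rose and 9.15% fell. STRA6, the membrane receptor that takes up retinol from its blood carrier, stood at 19.1 and 19.0 CPM in the shRNA control and 31.5 and 33.4 CPM with shNBD1. Its log2 fold change was 0.77 ± 0.12 (adjusted p = 0.00248, edgeR). In the inhibitor arm STRA6 was at 13.3 and 16.7 CPM in the control and 14.5 and 12.8 CPM with the inhibitors. RDH11, a reductase of retinal, rose by 0.27 ± 0.07 (adjusted p = 0.0244, edgeR), a call lost with DESeq2 (adjusted p = 0.0682) and without each of the 4 libraries in turn (from 0.11 to 0.176). With the inhibitors the smallest p-values belonged to RETSAT, a retinol saturase, at -0.36 ± 0.10 and RDH13 at 0.34 ± 0.14 (adjusted p = 0.138 and 0.267, edgeR). RETSAT passed when the second inhibitor control library was left out (0.0491). ALDH1A2, which makes retinoic acid from retinal, lay between 48.7 and 61.8 CPM in the 8 libraries, and CYP26A1, which breaks it down, between 1.06 and 2.20 CPM.

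Of 21 tested genes known to respond to retinoic acid, 4 rose with shNBD1 and none fell, where 9.18% of all genes rose and 9.15% fell. Counted in either direction, 4 of 21 is a share near the 18.3% called over all genes. Their median log2 fold change was 0.16 with shNBD1 and -0.12 with the inhibitors. TGM2, a transglutaminase that crosslinks proteins, went from 4.32 and 3.19 CPM to 10.6 and 10.6 CPM, which is 1.48 ± 0.19 on the log2 scale (edgeR, adjusted p = 0.000844). STRA6 belongs to this list too. HOXB2, a homeobox factor of the hindbrain, went from 9.23 and 9.99 to 13.2 and 15.4 CPM, at 0.58 ± 0.13 (adjusted p = 0.0136, edgeR), and RAI1, a chromatin-bound regulator, rose by 0.39 ± 0.11 (adjusted p = 0.0336, edgeR). HOXB2 lost its call when the first (adjusted p = 0.14) or second (0.07) shRNA control library or the second shNBD1 library (0.145) was left out. RAI1 lost it without the same libraries (0.242, 0.105 and 0.285). With the inhibitors the smallest p-values were those of BHLHE40, a repressor of the circadian clock, at 0.41 ± 0.11 and HOXB5 at -0.97 ± 0.46 (adjusted p = 0.136 and 0.315, edgeR). BHLHE40 passed when the second inhibitor control library (0.0433) or the first inhibitor library (0.0209) was left out.

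Of 16 tested corepressors and coactivators of nuclear receptors, 2 rose and 1 fell with shNBD1, a share near the 18.3% called over all genes. KAT2B, an acetyltransferase and coactivator, stood at 13.1 and 10.6 CPM in the shRNA control and 4.34 and 5.04 CPM with shNBD1, which is -1.35 ± 0.17 on the log2 scale (edgeR, adjusted p = 0.00082). KAT2B, TGM2 and STRA6 held their calls in this comparison under all 11 alternatives. CARM1, an arginine methyltransferase, rose by 0.25 ± 0.07 (edgeR, adjusted p = 0.0249), and its call was lost with DESeq2 (0.0711) and without each of the 4 libraries in turn (0.0882 to 0.191). With the inhibitors KAT2B stood at -0.45 ± 0.16 and HDAC3, the deacetylase of the corepressor complex, at -0.21 ± 0.08 (adjusted p = 0.217 and 0.26, edgeR). The other receptors and partners of RXR held 9 tested genes, none called with shNBD1 or the inhibitors by edgeR over the 8 libraries or by DESeq2, with 1 unadjusted p under 0.05 in each. That gene was NR1H2, a receptor for oxysterols, at 0.42 ± 0.14 with shNBD1 and 0.40 ± 0.13 with the inhibitors (adjusted p = 0.0543 and 0.191, edgeR). NR1H2 passed with shNBD1 when low counts were not filtered (0.0337) or only the 4 libraries compared were used (0.00088), and with the inhibitors when the second inhibitor control library was left out (0.0398). Of the fatty acid binding protein family, 2 members were tested. FABP5, which can also carry retinoic acid, stood at -0.04 ± 0.11 with shNBD1 and 0.03 ± 0.11 with the inhibitors, and FABP3, at no more than 1 CPM in any library, at 1.77 ± 0.78 and -0.09 ± 0.48.

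**Figure D4:**
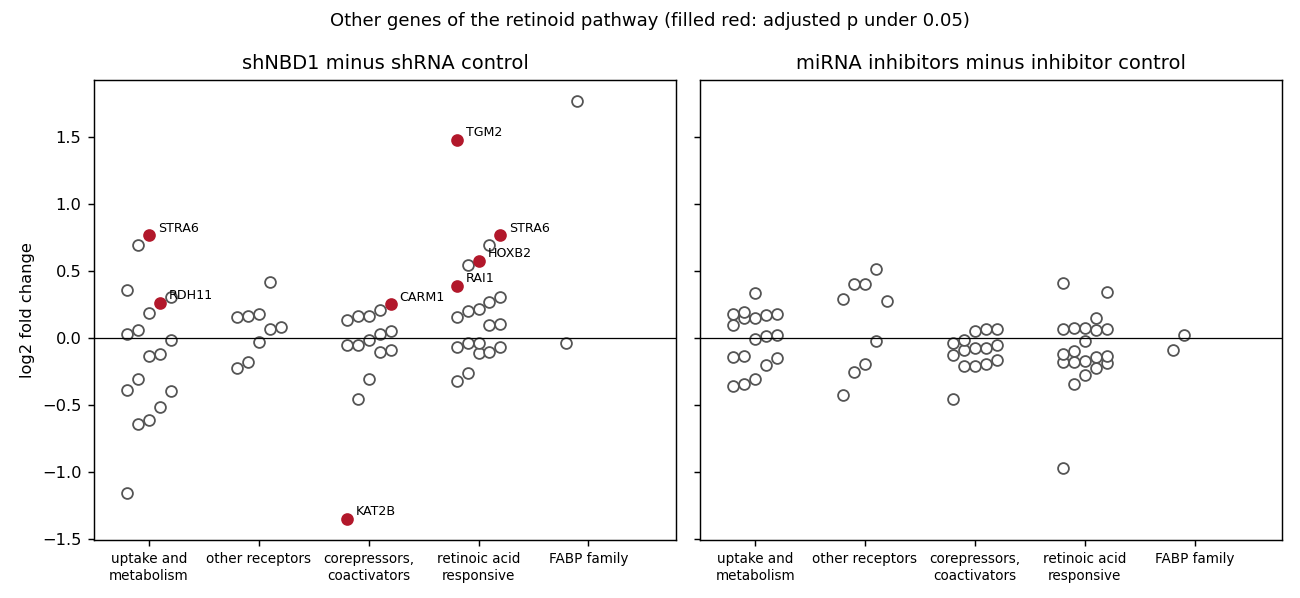
Log2 fold change (vertical axis) of tested genes of 5 retinoid lists with shNBD1 (left) and with the miRNA inhibitors (right). Filled red points have an adjusted p under 0.05, and STRA6 is drawn in both lists that hold it. The left panel shows 7 called genes, from KAT2B at -1.35 to TGM2 at 1.48, and the right panel none.

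Between the treated groups, 13 of the 62 list genes were higher and 6 lower with shNBD1 than with the inhibitors, or 30.6% beside 32.3% of all genes. STRA6 was higher by 1.24 ± 0.13, NR2F1, an orphan receptor, by 0.85 ± 0.14, PRMT1, an arginine methyltransferase, by 0.53 ± 0.08 and CYP26B1, which breaks down retinoic acid, by 0.78 ± 0.19. The vitamin D receptor VDR was lower, at -1.40 ± 0.31, and so was the coactivator NCOA2, at -0.50 ± 0.15 (adjusted p from 8.32e-05 to 0.0248 for these 6, edgeR). HOXB2 was higher by 0.61 ± 0.13, GPS2, of the corepressor complex, by 0.49 ± 0.08, THRB, a thyroid hormone receptor, by 0.87 ± 0.29 and DGAT1, which can esterify retinol, by 0.51 ± 0.17. KAT2B was lower here too, at -0.54 ± 0.19, and RDH12 at -2.20 ± 0.53, though RDH12 lay at or under 1.23 CPM in every library (edgeR, adjusted p from 0.00162 to 0.0479 for these 6). The calls of STRA6, NR2F1, PRMT1 and GPS2 held under all 11 alternatives. The others were lost in at least 1, which for VDR and HOXB2 was the fit without the second shNBD1 library (adjusted p = 0.0561 and 0.0644). Without that library CYP26B1, DGAT1, THRB and NCOA2 lost theirs too (0.0818, 0.213, 0.163 and 0.0808), RDH12 lost its call without the first shNBD1 library (0.0837), and KAT2B lost its call in 6 of 11 alternatives. Neither FABP3, at -0.51, nor FABP5, at -0.01, was called.

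The genes whose pattern over the 8 libraries was most like that of CRABP2 were sought among 8834 other genes with a mean of at least 10 CPM, by the root mean square difference between centred log2(CPM + 1) values. BANK1, a scaffold protein of B cells, came closest, with a difference of 0.30 and Pearson's r of 0.96. Its mean level was 4.24 CPM under the shRNA control, 6.47 under shNBD1, 26.8 under the inhibitor control and 26.6 under the inhibitors. MTRNR2L10 and MTRNR2L3, near-identical copies of a mitochondrial sequence whose reads cannot be told apart, followed at 0.31 and 0.32. CSPG4, a membrane proteoglycan, and IL32, a cytokine, came next at 0.37 and 0.38, with r of 0.98 and 0.94. IL32 went from a mean of 447 CPM in the inhibitor control to 299 with the inhibitors, where CRABP2 went from 25.2 to 28.3. MTRNR2L10, MTRNR2L3 and CSPG4 had higher means with the inhibitors than in that control. The ranking used the control libraries too, so it is not free of the choice of CRABP2. These correlations are descriptions over 8 libraries that share their arm in sets of 4. RARA stood at a difference of 0.97 from CRABP2, RXRA at 0.98 and RXRB at 1.12, and CRABP1 and RARG were under the minimum level.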

How the data were processed

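Read counts per feature, whole numbers with no scaling, were deposited by the authors for 8 ribosome profiling libraries of 293T cells, lysed with cycloheximide per the labels' protocols. The submitters' processing notes name cutadapt, Bowtie and GRCh38. Neither their roles nor the counting tool is known here. A feature not listed in a library was taken as 0, and 18037 features were summed to 17179 symbols.

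Groups were compared with edgeR 4.0.16 in R 4.3.3: filterByExpr (minimum count 10, minimum total 15), TMM, and a quasi-likelihood model of the 4 groups over 8 libraries with 4 residual degrees of freedom. The Benjamini-Hochberg adjustment ran over all 13306 tested genes, and a call needed an adjusted p under 0.05. SEs and nominal intervals are those implied by the test. DESeq2 1.42.0 and other settings served as alternatives. The fit was tested on simulated data. For shNBD1 against its control (13134 genes) it recovered 70% of 1.5-fold and 100% of 2-fold changes, with 7 false calls in 152. The inhibitor comparison (13126 genes) gave 70% and 100%, with 13 false calls in 158. shNBD1 against the inhibitors (13134 genes) gave 68% and 100%, with 2 in 144. These rates describe the simulated data only. In the real inhibitor comparison, calls over all genes were 16 in the main fit, 118 with DESeq2 and 0 from its 4 libraries alone. The rates are therefore not read as the power of that comparison, and not as the power for low-count genes such as FABP3 and RDH12.

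Genes and lists were chosen with earlier results of these data known. List genes were named by rule: per list and comparison, up to 4 called genes of largest change, or the 2 of smallest p. ALDH1A2, CYP26A1 and the marker genes were named after their values were seen. The control contrast was given without a test. The values of 1 called list gene are not reported here or drawn, though the counts include it.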

Additional observations from a re-analysis of the deposited data

Results flagged for a closer look

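The effect of shNBD1 differed from that of the inhibitors, by the test of the difference itself, for CRABP1 and 4 list genes (edgeR's quasi-likelihood test). For CRABP1 the difference was -1.69 on the log2 scale, from -1.94 with shNBD1 and -0.24 with the inhibitors. For CRABP2 it was 0.92, from 1.08 and 0.17, a description only, since it holds the gap between the controls that chose the genes. The difference was 0.90 for STRA6 (adjusted p = 0.0162) and 1.13 for TGM2 (adjusted p = 0.0283). For KAT2B it was -0.89 (adjusted p = 0.0477) and for BHLHE40 -0.67 (adjusted p = 0.0285), with -0.26 under shNBD1 and 0.41 under the inhibitors. The calls of STRA6, TGM2, KAT2B and BHLHE40 were each lost without any one of the 4 libraries of the shRNA arm, and the highest adjusted p over all their alternatives was 0.0929, 0.136, 0.235 and 0.151.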

How the results depend on the processing

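In all 6 settings tried, CRABP2 stayed lower in the shRNA control than in the inhibitor control. In the settings that kept both libraries of every group compared, 2 to 3 of the 6 genes were called with shNBD1. Between the treated groups 2 were called, and 0 with the inhibitors. Over all genes the main fit called 18.3%, 32.3% and 0.12% in that order. For the difference of effects CRABP2 was not counted, since it holds the control gap behind the choice of genes. CRABP1 ran there from -1.809 to -1.575 over 14 alternatives, where the main fit called 7.44% of all genes. CRABP2 is not free of that choice with shNBD1 or between the treated groups either. With 1 library left in a group, the fit assumes that it varies like the others. Calls among the 62 list genes moved more. With shNBD1 they were 8, against 5 with DESeq2, 16 with the replicate block and 3 to 5 without single libraries. With the inhibitors they were 0, against 3 with the replicate block and 0 to 3 without single libraries. For the difference they were 4, against 8 with the replicate block and 0 to 4 without single libraries. Between the treated groups they were 19, against 11 with DESeq2 and 7 to 17 without single libraries. The cause was not tested.

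The labels do not say that the replicate number pairs libraries, and the deviations of same-numbered libraries correlated at 0.015 in the shRNA arm and 0.42 in the inhibitor arm. Over all genes the block moved the calls with the inhibitors from 16 to 675, where DESeq2 gave 118, no filter on low counts 179, the 4 libraries alone 0, and fits without single libraries 4 to 930. With the block NR1H2 was called with shNBD1 (adjusted p = 0.0129), and NR1H2, RETSAT and BHLHE40 with the inhibitors (0.0411, 0.0427 and 0.0282).

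Over all genes, calls with shNBD1 were 2440, against 5314 from the 4 libraries alone and 532 to 1022 without single libraries. For the difference they were 990, against 1868 with the block and 187 to 1135 without single libraries, and between the treated groups 4303, against 2208 to 3898.

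Values near 0, and those of FABP3 at no more than 1 CPM, changed sign without single libraries, and none was past the threshold. With shNBD1 the log2 fold changes ran from -0.041 to 0.03 for RARG, -0.203 to 0.164 for RXRA, -0.133 to 0.041 for RXRB and -0.107 to 0.042 for FABP5. With the inhibitors they ran from -0.205 to 0.07 for RXRA, -0.172 to 0.018 for RXRB, -1.061 to 0.324 for FABP3 and -0.133 to 0.198 for FABP5. For the difference the ranges were -0.134 to 0.225 for RXRA, -0.059 to 0.128 for RXRB and -0.232 to 0.101 for FABP5. Between the treated groups they were -0.242 to 0.089 for RARA, -1.037 to 0.464 for FABP3 and -0.014 to 0.001 for FABP5, which was 0.002 with no filter on low counts. Between the controls RARG ran from -0.063 to 0.282 and RXRB from -0.024 to 0.167. With RXRB taken from 1 feature, an alternative added after seeing the data, it gave -0.055 for the difference and -0.075 between the treated groups.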
